A study of Mus musculus with 40 samples.

Results

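A set of 34 genes of cholesterol synthesis and sterol handling was followed in the liver of mouse fetuses whose mothers ate diets that differed in fat and folic acid. They were chosen by gene symbol as 20 enzymes of the mevalonate and sterol steps, 4 genes of SREBP2 control, 6 genes of sterol uptake, transport and esterification, and 4 genes of sterol efflux. All 34 were among the 20593 genes of the authors' table, and all 34 were among the 15377 genes that passed the filter on low values (at least 10 in at least 5 libraries) and were tested.

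Messenger RNA was read in 1 library per fetus from livers of C57BL/6 mouse fetuses at embryonic day 18.5. Dams had eaten their diet for 13 weeks before mating and then through gestation. The western diet with high folic acid (WDF) held 45% of its calories as fat and 10 mg/kg folic acid, and the western diet (WD) held 45% fat and 2 mg/kg folic acid. The control diet with high folic acid (CDF) held 10% fat and 10 mg/kg folic acid, and the control diet (CD) held 10% fat and 2 mg/kg. Each diet had 5 male (M) and 5 female (F) libraries, which gives 8 groups. The high-fat dams are named in the study as a model of gestational diabetes. The labels give no dam or litter, and siblings may be among the fetuses, so a p-value here reflects variation from fetus to fetus only.

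Of the 40 libraries 2 from females, CD replicate 4 and CDF replicate 5, were left out because they were low in liver message and high in lung message. The albumin gene Alb stood at 7708 and 5278 normalized read counts in them, against 641907 to 1496610 in the other 38, and the lung surfactant gene Sftpc stood at 101239 and 67014. In both of them 22 of the 34 genes lay below the range of the 38 libraries. Unless stated otherwise the results rest on the 38 libraries, whose normalized read counts summed to between 15.0 and 27.8 in units of 1000000. Among those 38, 6 held more than 1000 normalized read counts of Sftpc.

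Cholesterol is built from acetyl-CoA through mevalonate, the isoprenoid diphosphates and squalene to lanosterol, which a chain of sterol enzymes trims into cholesterol. The transcription factor SREBP2 turns these genes on together when membrane sterol is low. It is carried out of the endoplasmic reticulum by SCAP and held back there by the INSIG proteins when sterol is plentiful. Surplus sterol is esterified for storage or exported, and in hepatocytes the paired half-transporters ABCG5 and ABCG8 move it into bile. Their genes are targets of the liver X receptors, which are activated by oxysterols.

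Promoter sequences are shown for 4 genes, as 300-base windows on the RefSeq annotation of build GRCm38.p6, each on the strand of its gene. The motif CCAAT, bound by NF-Y, and the motif TCACNCCAC, a core of the sterol response element bound by SREBP, are in capitals wherever they occur on either strand. Hmgcs1, which makes HMG-CoA on the way to mevalonate, is at chr13:119690101-119690400 (plus strand). The desaturase gene Sc5d is at chr9:42264251-42264550 (minus strand) and the sterol reductase gene Tm7sf2 at chr19:6067801-6068100 (minus strand). Abcg8 has 2 annotated start sites, and the window shown, at chr17:84682871-84683170 (plus strand), is that of the start site next to Abcg5.
Hmgcs1: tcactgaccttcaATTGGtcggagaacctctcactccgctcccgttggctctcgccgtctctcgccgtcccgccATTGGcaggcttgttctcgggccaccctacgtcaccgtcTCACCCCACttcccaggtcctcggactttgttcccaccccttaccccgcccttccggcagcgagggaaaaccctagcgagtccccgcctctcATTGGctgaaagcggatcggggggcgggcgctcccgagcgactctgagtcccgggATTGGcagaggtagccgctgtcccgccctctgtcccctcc
Sc5d: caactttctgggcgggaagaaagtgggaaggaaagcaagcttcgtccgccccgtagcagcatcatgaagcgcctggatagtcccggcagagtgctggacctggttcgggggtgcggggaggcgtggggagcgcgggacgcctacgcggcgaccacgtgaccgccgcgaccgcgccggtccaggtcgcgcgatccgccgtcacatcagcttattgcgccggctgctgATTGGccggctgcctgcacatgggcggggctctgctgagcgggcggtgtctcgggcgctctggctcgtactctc
Tm7sf2: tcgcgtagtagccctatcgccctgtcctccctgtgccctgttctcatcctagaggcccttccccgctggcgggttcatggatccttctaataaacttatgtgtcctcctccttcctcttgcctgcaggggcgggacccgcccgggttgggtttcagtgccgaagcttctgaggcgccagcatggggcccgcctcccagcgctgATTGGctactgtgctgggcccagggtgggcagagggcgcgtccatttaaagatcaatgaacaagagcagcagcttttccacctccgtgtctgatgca
Abcg8: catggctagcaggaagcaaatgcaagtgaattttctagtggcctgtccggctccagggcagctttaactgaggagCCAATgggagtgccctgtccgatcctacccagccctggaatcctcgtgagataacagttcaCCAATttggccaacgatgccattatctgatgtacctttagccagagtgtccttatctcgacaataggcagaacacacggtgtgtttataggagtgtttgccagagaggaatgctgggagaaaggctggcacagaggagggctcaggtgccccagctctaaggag
The Hmgcs1 window held the sterol response core once, 137 bases before the start site, and CCAAT 4 times, whereas the Sc5d and Tm7sf2 windows held CCAAT once each. The Abcg8 window shown held CCAAT 2 times, and the window of the other Abcg8 start site, at chr17:84676052-84676351, held it 0 times. The one shown is shared in part with Abcg5, which is read in the opposite direction: the RefSeq start sites, at 84683011 for Abcg5 and 84683121 for this start of Abcg8, lie 110 bases apart, and 209 bases belong to both windows.

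A window was found for 27 of the 34 genes, with 34 windows in all because some genes have several start sites. CCAAT was present in 24 windows (70.6%), against 37.4% of all 32851 windows of that length. The Sp1 motif GGGCGG was present in 76.5% of the member windows against 35.7% of all windows, and the E-box CACGTG in 20.6% against 7.15%. The sterol response core TCACNCCAC was found in the Hmgcs1 window alone, 2.94% of the member windows, and in 408 of all 32851 windows. The 4 motifs were searched on both strands, no pair of them can share a full copy, and a match describes letters and not a bound site.

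The genes ranged widely in abundance. Per kilobase of principal transcript, the median level over 38 libraries was highest for Fdps, the farnesyl diphosphate synthase, at 5852 normalized read counts per kb. Hmgcs1 followed at 3447 and Insig1, whose protein is a brake on SREBP2 processing, at 2899. The lowest medians per kb were those of Abcg5 at 8.31 and Abcg8 at 9.83, so the pair sat far below Abcg1 at 49.7 and Abca1 at 320, which load cholesterol onto lipoproteins. Abcg5 and Abcg8 also had the widest spread within groups, with residual SDs of 0.84 and 0.60 on the log2 scale. The narrowest was that of Lbr, the lamin B receptor, which doubles as a sterol reductase, at 0.18, and the median over the members was 0.32 against 0.38 over all genes tested.

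Most of these genes were lower in livers of fetuses from western-fed dams than in those from control-fed dams, by a modest margin, and 1 of them passed the test. In the comparison of 20 western-diet libraries (WD and WDF) with 18 control-diet libraries (CD and CDF), Abcg8 was lower by 0.96 on the log2 scale (SE 0.19, limma adjusted p = 0.0301). It was 1 of 7 genes called among 15377, or 0.0455% of all genes tested. The log2 difference was below 0 for 29 of the 34 members, and 50.2% of all genes were below 0. At an unadjusted p under 0.05, 19 members were lower and 1 was higher, against 4.25% and 3.25% of all genes tested. The median log2 difference was -0.24 over the 34 members, -0.28 over the 20 enzymes and -0.00 over all genes.

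**Figure D1:**
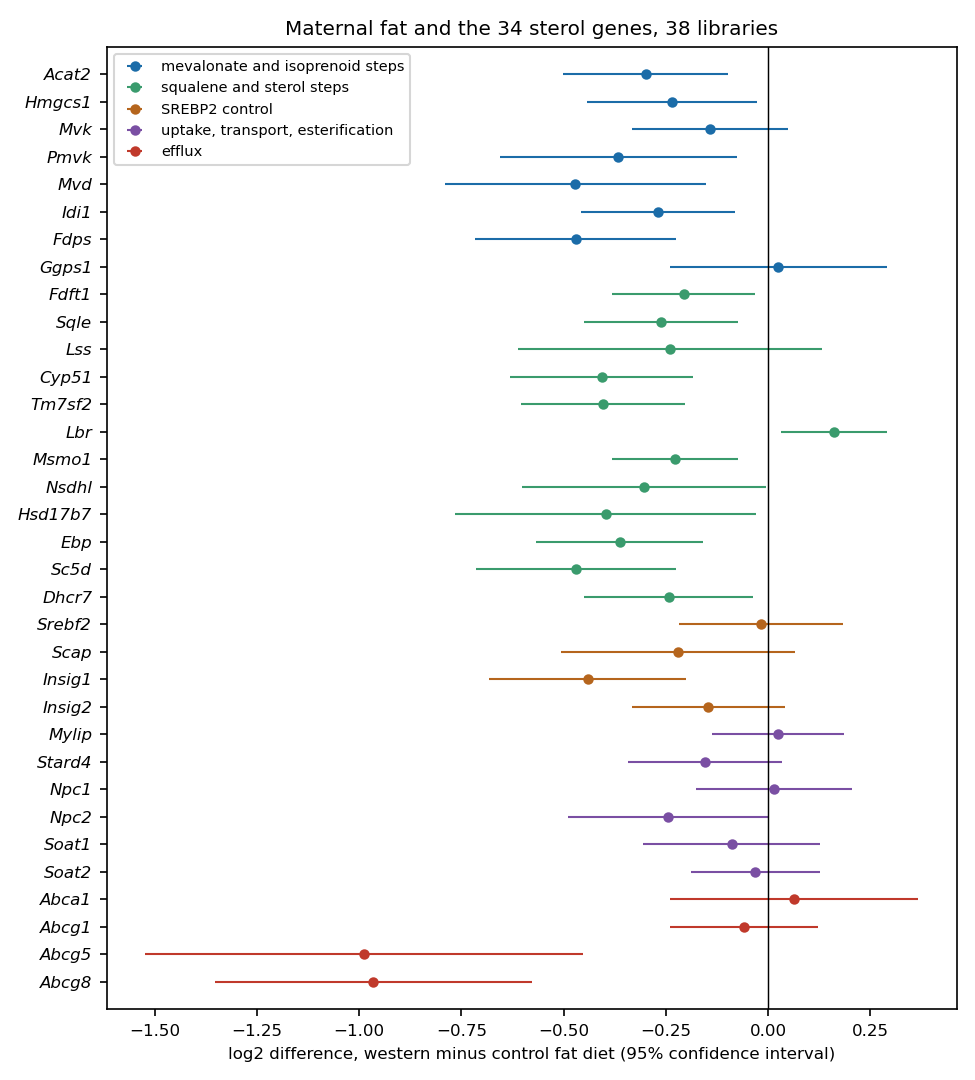
Log2 difference of each of the 34 genes, western minus control fat diet, pooled over sex and folic acid (20 against 18 libraries); points are limma estimates, bars 95% confidence intervals, and colours roles. Of the 34 points, 29 lie left of 0, and the Abcg5 and Abcg8 points lie farthest left, near -1.

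Of the 8 enzymes from acetyl-CoA to the isoprenoid diphosphates, 7 had a difference below 0 and 6 an unadjusted p under 0.05, and none passed the adjusted threshold. Fdps ran from 3243 to 8729 normalized read counts in western-diet livers with a median of 7091, against 4733 to 14011 with a median of 9743 in control-diet livers. The groups overlapped, and the log2 difference was -0.47 (SE 0.12, adjusted p = 0.162). Mvd, the decarboxylase that makes isopentenyl diphosphate, likewise differed by -0.47 (SE 0.16, adjusted p = 0.353). Pmvk and Mvk, the mevalonate kinases, had -0.37 and -0.14, the thiolase Acat2 -0.30, the isomerase Idi1 -0.27 and Hmgcs1 -0.23. Ggps1, which draws farnesyl diphosphate off to protein prenylation, was the exception at 0.02 (SE 0.13).

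Of the 12 enzymes from squalene synthase onward, 11 had a difference below 0, and 10 of these had an unadjusted p under 0.05. Sc5d, which desaturates lathosterol, ran from 2151 to 4606 with a median of 2980 in western-diet livers, against 1974 to 6080 with a median of 4485 in control-diet livers. Its log2 difference was -0.47 (SE 0.12, adjusted p = 0.162). Tm7sf2 ran from 929 to 1976 with a median of 1423 in western-diet livers, against 937 to 3128 with a median of 1795 in control-diet livers. Its difference was -0.40 (SE 0.10, adjusted p = 0.122), the smallest adjusted p of any enzyme. The ranges overlapped for both genes, although both medians were lower in western-diet livers.

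The lanosterol demethylase gene Cyp51 differed by -0.41, the ketoreductase gene Hsd17b7 by -0.40 and the sterol isomerase gene Ebp by -0.36. The sterol dehydrogenase gene Nsdhl had -0.30, the squalene epoxidase gene Sqle -0.26, Lss, which closes squalene epoxide into lanosterol, -0.24, and Dhcr7, which reduces dehydrocholesterol to cholesterol, -0.24. The methyl oxidase gene Msmo1 had -0.23 and the squalene synthase gene Fdft1 -0.21. Lbr was the enzyme outside this direction, with a mean of 3176 ± 409 in western-diet livers against 2855 ± 363 in control-diet livers (SD, n = 20 and 18) and a log2 difference of 0.16 (SE 0.06, adjusted p = 0.531), the 1 member that was higher at an unadjusted p under 0.05. Lbr and Tm7sf2 encode enzymes for the same reductase step and stood on opposite sides of 0.

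**Figure D2:**
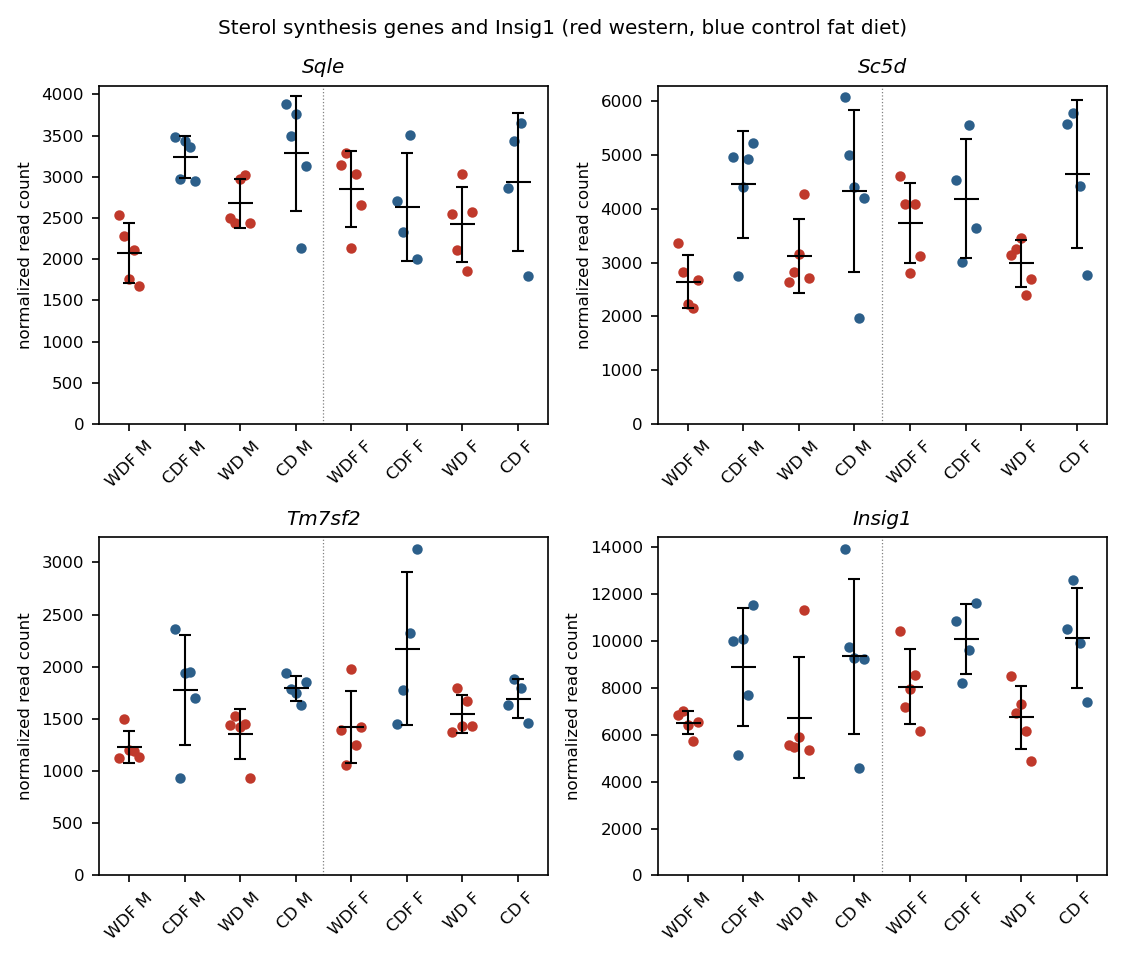
Normalized read counts of Sqle, Sc5d, Tm7sf2 and Insig1 in each of the 38 libraries by group (M male, F female; red western, blue control fat diet); black bars are the mean and SD. In males the 5 WDF values of Sqle, 1672 to 2540, all lie under the 5 CDF values, 2947 to 3487, whereas in females the WDF and CDF values overlap.

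Among the control genes, Insig1 was the one with an unadjusted p under 0.05. It ran from 4863 to 11324 with a median of 6713 in western-diet livers, against 4593 to 13929 with a median of 9844 in control-diet livers, a log2 difference of -0.44 (SE 0.12, adjusted p = 0.218). Its paralog Insig2 had -0.15 (SE 0.09) and Scap -0.22 (SE 0.14). Srebf2, the gene of SREBP2 itself, averaged 1562 ± 236 in western-diet livers against 1621 ± 357 in control-diet livers (SD, n = 20 and 18), with a difference of -0.02 and a 95% confidence interval of -0.22 to 0.18. The interval for Srebf2 does not reach the estimates of Insig1, Fdps or Sc5d, but the difference between genes was not tested.

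The 6 genes of uptake, transport and esterification stood close to 0, with a median of -0.06 and none with an unadjusted p under 0.05 in the pooled comparison. Npc2, a lysosomal cholesterol carrier, had -0.24 (SE 0.12) and the sterol transfer gene Stard4 -0.15 (SE 0.09). The esterifying enzymes Soat1 and Soat2 had -0.09 and -0.03, the lysosomal exporter Npc1 0.01, and Mylip, which marks the LDL receptor for breakdown, 0.02. Of the efflux genes, Abcg1 had -0.06 (SE 0.09) and Abca1 0.06 (SE 0.15), apart from Abcg5 and Abcg8 described next.

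Abcg8 read 40.7, 31.5, 26.5, 28.5 and 32.9 normalized read counts in WDF males, against 85.7, 77.5, 35.7, 53.4 and 50.2 in CDF males. In males without added folic acid it read 27.4, 22.3, 24.7, 62.0 and 9.69 with WD, against 96.5, 91.6, 40.7, 29.2 and 76.6 with CD. In each male pair 1 or 2 values crossed, and WD replicate 4 stood alone among its group. In females it read 31.4, 27.1, 40.5, 36.4 and 21.2 with WDF, against 63.2, 33.0, 65.5 and 54.7 with CDF. With ordinary folic acid the female values were 30.6, 31.6, 36.4, 35.5 and 17.4 with WD, against 71.3, 107, 68.8 and 24.5 with CD. In each female pair a single control-diet library fell within the western-diet range. Pooled, Abcg8 averaged 30.7 ± 10.6 in western-diet livers against 62.5 ± 24.2 in control-diet livers (SD, n = 20 and 18). The fitted log2 difference, equal to 48.8% lower on the scale of value + 1, had a 95% confidence interval of -1.35 to -0.58.

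Abcg5, taken up after its values were seen because it is the partner of Abcg8, read 8.68, 14.0, 17.8, 12.4 and 13.5 in WDF males, against 47.8, 16.8, 20.04, 41.1 and 35.4 in CDF males. It read 16.2, 11.3, 8.11, 46.3 and 2.57 in WD males, against 72.9, 40.5, 10.4, 16.2 and 39.5 in CD males. The WD male that was high for Abcg8, replicate 4, was also high for Abcg5. In females Abcg5 read 23.9, 7.03, 24.3, 25.4 and 19.0 with WDF, against 26.4, 17.98, 28.5 and 32.4 with CDF. It read 23.8, 16.9, 29.6, 10.8 and 5.63 in WD females, against 47.6, 47.5, 32.7 and 16.2 in CD females. All 4 pairs of groups overlapped. Abcg5 averaged 16.9 ± 10.1 in western-diet livers against 32.8 ± 15.7 in control-diet livers (SD, n = 20 and 18), and its log2 difference of -0.99 (SE 0.26) had an adjusted p of 0.212, so it did not pass. Within groups, the 2 genes had a correlation of their residuals of 0.76 over the 38 libraries, which share depth and tissue composition.

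**Figure D3:**
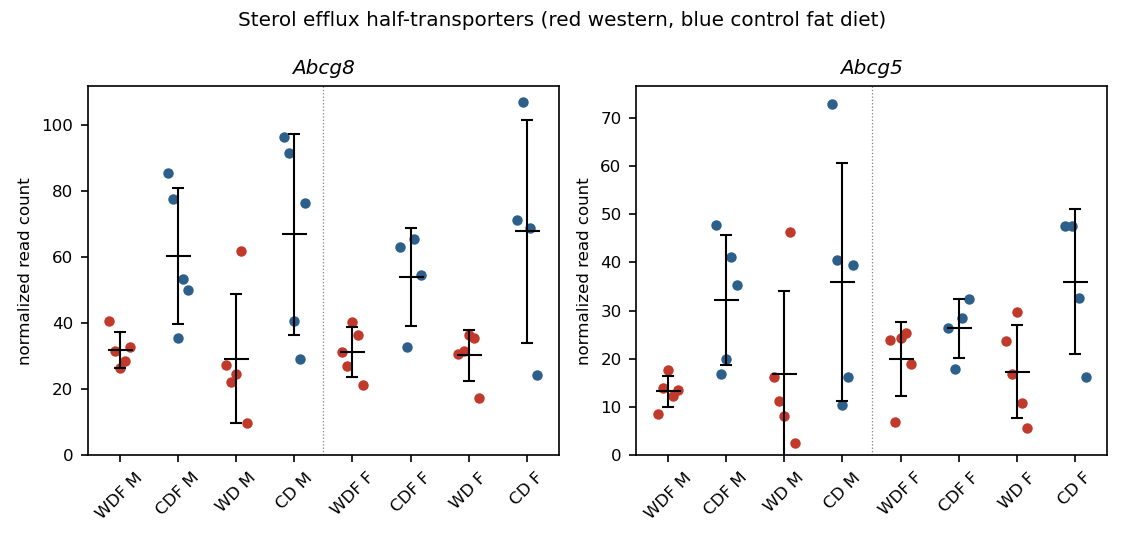
Normalized read counts of Abcg8 and Abcg5 in each of the 38 libraries by group (M male, F female; red western, blue control fat diet); black bars are the mean and SD. The mean of each western-diet group, 29.2 to 32.0 for Abcg8, lies under the means of the control-diet groups, 54.1 to 67.9.

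The Abcg8 call stood near the threshold. Leaving out 1 library at a time ended it in 16 of 38 cases, with adjusted p between 0.0501 and 0.0939 and log2 differences between -0.96 and -0.90. Those libraries were WDF males 3 and 4, WD males 2 and 3, CDF male 1, CD males 1, 2 and 5, WDF females 2 and 5, WD female 5, CDF females 1 and 3, and CD females 1, 2 and 3. With all 40 libraries the difference was -0.49 (adjusted p = 0.548), 0 members passed and 0.0192% of all genes did. Without CDF male replicate 2, 7 members passed, namely Fdps, Cyp51, Tm7sf2, Ebp, Sc5d, Insig1 and Abcg8 (0.345% of all genes passed), and without CD male replicate 4, Sc5d and Abcg8 passed (0.0653% of all genes). With libraries weighted by their fit, 17 members passed, all of them lower, among 3.16% of all genes, and these included Sqle, Sc5d, Insig1, Abcg5 and Abcg8.

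Other changes accompanied the fat comparison. All 10 markers of erythroid cells had a difference above 0 (median 0.22, 6 with an unadjusted p under 0.05), as did 8 of 8 cell cycle genes (median 0.16). At that threshold 3.25% of all genes were higher. WDF against CDF males went the other way, with 7 of 10 erythroid markers and 6 of 8 cell cycle genes below 0. The summed erythroid markers ran from 60067 to 99675 over the western-diet libraries, against 47670 to 87780 over the control-diet libraries. Hepatocyte markers were evenly split, with 6 of 10 below 0 and a median of -0.01. In bulk tissue fewer cells of a type and less RNA per cell cannot be told apart. With the erythroid level as a covariate, the enzyme median was -0.39 and 31 of 34 members were below 0, although 0 members and 0 genes in all passed.

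All 6 mesothelial markers were below 0 (median -0.60, 5 with an unadjusted p under 0.05) and so were all 10 lung epithelial markers (median -1.001, 0 with an unadjusted p under 0.05). At that threshold 4.25% of all genes were lower. In WDF against CDF males all 10 lung epithelial markers were above 0. The lung sum ran from 140 to 8809 in western-diet libraries, against 139 to 40997 in control-diet libraries. It was highest in CD female replicate 5 and CDF female replicate 4. Without those 2 libraries the enzyme median was -0.35 and 32 members were below 0, and Abcg8 had an adjusted p of 0.00821. With the 2 libraries of low albumin put back, so that all 40 entered, the enzyme median was -0.05. The 12 enzymes from squalene synthase onward then had a median of 0.03, with 5 below 0 and 0 lower at an unadjusted p under 0.05, and 25 of the 34 members were below 0.

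The 4 fat comparisons within a sex and a folic acid dose use separate libraries, and 0 genes passed the adjusted threshold in any of them. Of the 34 members, 11 had a difference below 0 in all 4, against 5.48% of all genes tested, and 14 were below 0 in 3. The 11 were Mvd, Fdps, Cyp51, Tm7sf2, Msmo1, Sc5d, Dhcr7, Insig1, Insig2, Abcg5 and Abcg8, of which the first 7 are synthesis enzymes. No member was above 0 in all 4. The share over all genes was 4.24%, small enough that its absence among 34 genes says little about them.

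**Figure D4:**
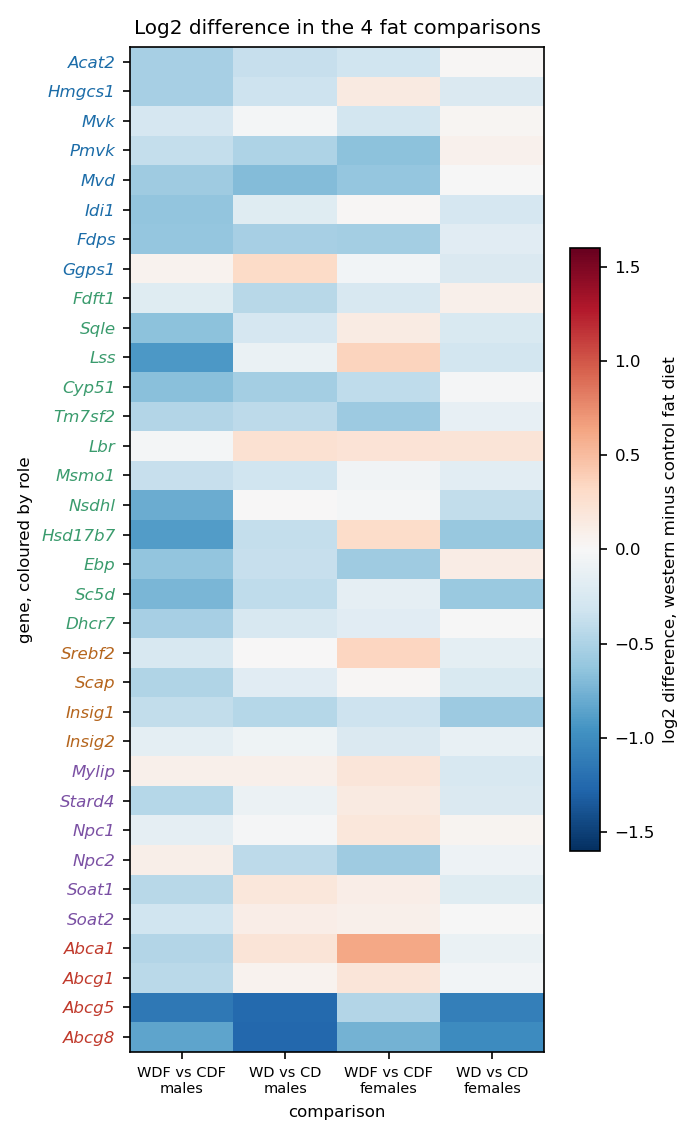
Log2 difference, western minus control fat diet, of each of the 34 genes (down the page, coloured by role) in the 4 fat comparisons (across), with blue for lower and red for higher in western-diet livers. The WDF against CDF male column is blue for 31 of 34 genes, and Abcg5 and Abcg8 are blue in all 4 columns.

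Of the 4, the median difference lay farthest from 0 in males at high folic acid. WDF against CDF males gave 31 of 34 members below 0 (49.1% of all genes), 20 with an unadjusted p under 0.05 (3.47% of all genes tested were lower at that threshold) and a median of -0.47, with -0.55 for the enzymes. Groups did not overlap for 5 members, all lower, against 1.05% of all genes lower without overlap. These 5 were Hmgcs1, Idi1, Sqle, Hsd17b7 and Stard4.

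Sqle, the squalene epoxidase that controls entry into sterols, read 2540, 2286, 1762, 2107 and 1672 normalized read counts in WDF males, against 3487, 2975, 3440, 3358 and 2947 in CDF males. Every WDF male was below every CDF male, and the log2 difference was -0.66 (SE 0.18, limma adjusted p = 0.420). Idi1, which interconverts the isoprenoid diphosphates, read 3829, 3028, 2443, 2856 and 2669 in WDF males, against 5262, 4015, 4323, 4888 and 4399 in CDF males. These groups were apart as well, with -0.64 (SE 0.18, adjusted p = 0.480). Ebp read 1642, 2103, 1705, 1622 and 1901 in WDF males, against 4156, 1725, 2753, 3369 and 2450 in CDF males. CDF replicate 2 lay within the WDF range, and the difference was -0.63 (SE 0.19, adjusted p = 0.502). Lss and Hsd17b7 had larger differences, -0.91 and -0.89, with wider spread. With library weights 12 members, all enzymes, passed as lower in this comparison (1.57% of all genes passed), where the unweighted fit called none.

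WD against CD males gave 25 of 34 members below 0 (52.3% of all genes), 8 of them with an unadjusted p under 0.05 (3.3% of all genes tested), and medians of -0.26 over members and -0.35 over enzymes. After Abcg8, at -1.25 (SE 0.37, adjusted p = 0.627), the smallest p-values belonged to Fdft1 and Cyp51. Fdft1 read 3617, 4461, 4014, 3722 and 2222 in WD males, against 4695, 4443, 4701, 5794 and 4399 in CD males. The groups overlapped at WD replicate 2, and the difference was -0.44 (SE 0.17, adjusted p = 0.673). Cyp51 read 4708, 5420, 5541, 3875 and 2821 in WD males, against 6832, 5435, 7132, 7479 and 5069 in CD males. The WD values of replicates 2 and 3 lay above the lowest CD value, and the difference was -0.54 (SE 0.21, adjusted p = 0.673). Tm7sf2 was the 1 member without overlap, all 5 WD values, 929 to 1527, lying under the CD values, 1632 to 1941 (0.676% of all genes were lower without overlap). The count of 8 lower at an unadjusted p under 0.05 was 1 without WD replicate 5 and 4 without CD replicate 1. With library weights Insig1 and Abcg8 passed as lower here (0.943% of all genes passed). In this and later comparisons, counts at an unadjusted p with a library left out stand without the share over all genes in that setting. They show how far a count rests on single libraries, and do not set the members against other genes.

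WDF against CDF females gave 19 of 34 members below 0 (49.1% of all genes) and 5 with an unadjusted p under 0.05 (3.91% of all genes tested), no member without overlap (0.488% of all genes were lower without overlap), and medians of -0.05 over members and -0.16 over enzymes. Tm7sf2 read 1392, 1059, 1976, 1254 and 1425 in WDF females, against 1455, 1774, 2324 and 3128 in CDF females. All but 1 WDF value lay under the lowest CDF value, and the difference was -0.58 (SE 0.20, adjusted p = 0.532). Ebp read 1831, 1754, 2438, 2031 and 2322 in WDF females, against 2405, 2393, 3529 and 4236 in CDF females. WDF replicate 3 alone reached the CDF range, and the difference was -0.57 (SE 0.21, adjusted p = 0.532). Npc2 read 2377, 2489, 3746, 2196 and 2766 in WDF females, against 2944, 3467, 2763 and 8538 in CDF females. CDF replicate 4, the library with the most lung message in its group, stood far above the others, and the difference was -0.56 (SE 0.25, adjusted p = 0.532). The count of 5 was 2 without WDF replicate 4, 3 without WDF replicate 2, 0 without CDF replicate 4, 3 without CDF replicate 3 and 9 without CDF replicate 1, and the enzyme median ran between -0.22 and -0.06.

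WD against CD females gave 27 of 34 members below 0 (52.2% of all genes) and 3 with an unadjusted p under 0.05, Abcg8, Sc5d and Insig1 (3.51% of all genes tested), and medians of -0.16 over members and -0.15 over enzymes. Sc5d read 3145, 3246, 3455, 2395 and 2688 in WD females, against 5585, 5786, 4434 and 2778 in CD females. Insig1 read 8494, 6916, 7309, 6181 and 4863 in WD females, against 10519, 12587, 9934 and 7402 in CD females. For both genes CD replicate 5 was the one control value inside the WD range, and the differences were -0.59 (SE 0.25, adjusted p = 0.662) and -0.58 (SE 0.24, adjusted p = 0.662). Mylip was the 1 member without overlap, at 223 to 253 with WD against 256 to 314 with CD (1.32% of all genes were lower without overlap). The count of 3 was 1 without WD replicate 5, 0 without CD replicate 2 and 8 without CD replicate 5, and the enzyme median ran between -0.23 and -0.06 with 1 library left out.

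The fat difference itself was set between the sexes as a test of interaction, female minus male. It passed for 0 genes, and 29 of 34 members were above 0 (median 0.22, with 49.8% of all genes below 0). For those members the estimated western minus control difference lay higher in females than in males. Enzyme levels tended to move together within groups, as given below, so these signs are not separate results. Sqle had the smallest p, 0.41 (SE 0.19, limma adjusted p = 1.00), and 0.397% of all genes were higher at an unadjusted p under 0.05, as Sqle alone was among the members. With 1 library left out, 0 to 5 members were higher at that threshold, the most without CDF male replicate 2. The difference of fat effects between folic acid doses, high minus ordinary, also passed for 0 genes. Ebp alone among the members was lower at an unadjusted p under 0.05, at -0.47 (SE 0.20, adjusted p = 0.968), with 1.96% of all genes lower. That count of 1 was 0 without CDF female replicate 4 or CD female replicate 5, and 2 without CDF male replicate 2.

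No member passed the test for added folic acid. Over all 4 pairs (19 libraries each) 0 genes passed, 0 members had an unadjusted p under 0.05 (1.28% of all genes were lower and 1.05% higher) and 17 members were on each side of 0, with 50.5% of all genes below it. The smallest member p-values were those of Soat2 at -0.09 (SE 0.08), Npc1 at 0.10 (SE 0.09) and Ggps1 at -0.13 (SE 0.13), each with a limma adjusted p of 1.00. By group, the closest to a shift was WDF against WD males, with 26 of 34 members below 0 (48.5% of all genes), 19 of the 20 enzymes among them, a median of -0.21 and 3 members lower at an unadjusted p under 0.05 (4.04% of all genes tested).

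Soat2, which esterifies cholesterol in hepatocytes, read 293, 259, 219, 256 and 252 in WDF males, against 276, 309, 319, 420 and 354 in WD males. The groups met at WDF replicate 1 and WD replicate 1, and the difference was -0.38 (SE 0.15, adjusted p = 0.501). Sqle and Idi1, whose WDF male values are given above, read 2504, 2441, 2977, 3017 and 2444, and 3628, 3990, 4549, 3920 and 3063 in WD males. In both genes WDF replicate 1 was the value that crossed, and the differences were -0.38 (SE 0.18, adjusted p = 0.558) and -0.37 (SE 0.18, adjusted p = 0.562). The WDF males are shared with the fat comparison above, so these values are not separate evidence. The count of 3 was 1 without WDF replicate 3 or 4, 0 without WD replicate 4, 1 without WD replicate 3 and 7 without WD replicate 5, and the enzyme median ran between -0.38 and -0.16. With library weights Mvk, Idi1, Sqle and Nsdhl passed as lower in WDF males, among 4.04% of all genes.

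The other folic acid comparisons held 0 members with an unadjusted p under 0.05. At that threshold 0.663% of all genes were lower and 0.774% higher in WDF against WD females, 1.98% and 1.5% in CDF against CD males, and 3.95% and 3.83% in CDF against CD females. WDF against WD females had its smallest p-values at Hsd17b7, 0.60 (SE 0.35), Abcg1, 0.28 (SE 0.17), and Idi1, 0.28 (SE 0.18). CDF against CD males had them at Npc1, 0.29 (SE 0.18), Srebf2, 0.30 (SE 0.19), and Soat1, 0.31 (SE 0.21). CDF against CD females had them at Ebp, 0.41 (SE 0.22), Pmvk, 0.57 (SE 0.31), and Cyp51, 0.42 (SE 0.24). The adjusted p was at least 0.507 in each of these cases. Across the members these differences moved with principal transcript length. The Spearman correlation was 0.55 in WDF against WD females, 0.62 in CDF against CD males and -0.57 in CDF against CD females. Over all genes it was 0.41, 0.24 and -0.47 in the same order. The folic acid difference between sexes passed for 0 genes and was above 0 for 19 of the 20 enzymes, female minus male (51.5% of all genes were below 0), with the smallest p-values at Cyp51, 0.39 (SE 0.22), Mvd, 0.53 (SE 0.31), and Idi1, 0.29 (SE 0.19).

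In the authors' deposited tables of the folic acid comparisons, 0 members passed an adjusted p of 0.05 in any of the 4. The shares of all genes called were 0.0216% in control-diet females, 0.0437% in control-diet males and 0% in western-diet females. Western-diet males had the most calls, 203 genes or 1.48%, and there the lowest member value in the authors' deposited table was that of Nsdhl, at 0.0554. Nsdhl, named after its value was seen, read 1156, 713, 818, 809 and 861 in WDF males, against 1131, 1205, 1452, 1572 and 1064 in WD males. WDF replicate 1 alone lay above the lowest WD value, and its log2 difference in the limma fit was -0.56.

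Female against male livers, pooled over diets, differed for 9 genes (0.0585%), none of them a member. Ggps1 averaged 207 ± 45.0 in females against 171 ± 52.2 in males (SD, n = 18 and 20), 0.33 on the log2 scale (SE 0.13, limma adjusted p = 0.999). It was the 1 member with an unadjusted p under 0.05, in a direction held by 1.98% of all genes. Insig1 and Tm7sf2, next by p, had 0.18 and 0.15.

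Within groups, libraries high in one synthesis enzyme tended to be high in others. The median correlation of residuals between 2 enzymes was 0.41 over 38 libraries, 161 of 190 pairs were above 0, and the range was -0.59 to 0.93. Against the mean of the other enzymes, Dhcr7 had the highest correlation at 0.90, followed by Hmgcs1 at 0.80 and Fdps at 0.79, and Ggps1 the lowest at -0.09. Insig1 and Stard4 stood at 0.54 each, Abcg8 at 0.48 and Srebf2 at 0.26. These figures describe libraries that share depth and tissue composition.

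The mean deviation of the 20 enzymes from their average over 38 libraries was below 0 in all 5 WDF males, from -0.46 to -0.18, the one group of 8 with no library above 0. All 4 CDF females lay above 0, from 0.02 to 0.49. CDF males spread from -0.31 to 0.46, and WD males from -0.57 to 0.11. The lowest library of all was WD male replicate 5.

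Genes outside the 34 that followed the enzyme mean most closely within groups included Acss2, which makes acetyl-CoA from acetate (r = 0.86), Acly, which makes it from citrate (0.86), the fatty acid desaturase genes Fads1 (0.85) and Fads2 (0.83), and Rdh11 (0.77). The others named by this rule were 1700019D03Rik (0.82), Chrna4 (0.79), Plekhd1 (0.77) and Krt20 (0.77), each over 38 libraries. Acss2 was itself among the 7 genes called for fat, at -1.05 (limma adjusted p = 0.0221). The fat differences of Fads2, -0.74 (adjusted p = 0.0957), and Acly, -0.55 (adjusted p = 0.141), did not pass.

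Transcript length moved with these differences. Each library was set against the gene means of the 38, and the Spearman correlation of its deviations with principal transcript length over 15370 genes ran from -0.52 in CDF female replicate 4 to 0.49 in WD male replicate 5. Across the 34 members, the log2 difference of WDF against CDF females had a Spearman correlation of 0.67 with length (0.48 over all genes), whereas WDF against CDF males had 0.07 (-0.30 over all genes). In those females the short transcripts Pmvk (1.19 kb), Fdps (1.38 kb) and Tm7sf2 (1.47 kb) had -0.66, -0.55 and -0.58, and the long Abca1 (10.3 kb) and Lss (4.67 kb) had 0.61 and 0.35. In WD against CD females the correlation was -0.21 over members (-0.33 over all genes), and in WD against CD males it was 0.41 (0.19). In the pooled fat comparison the correlation was 0.46 over members and 0.05 over all genes.

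**Figure D5:**
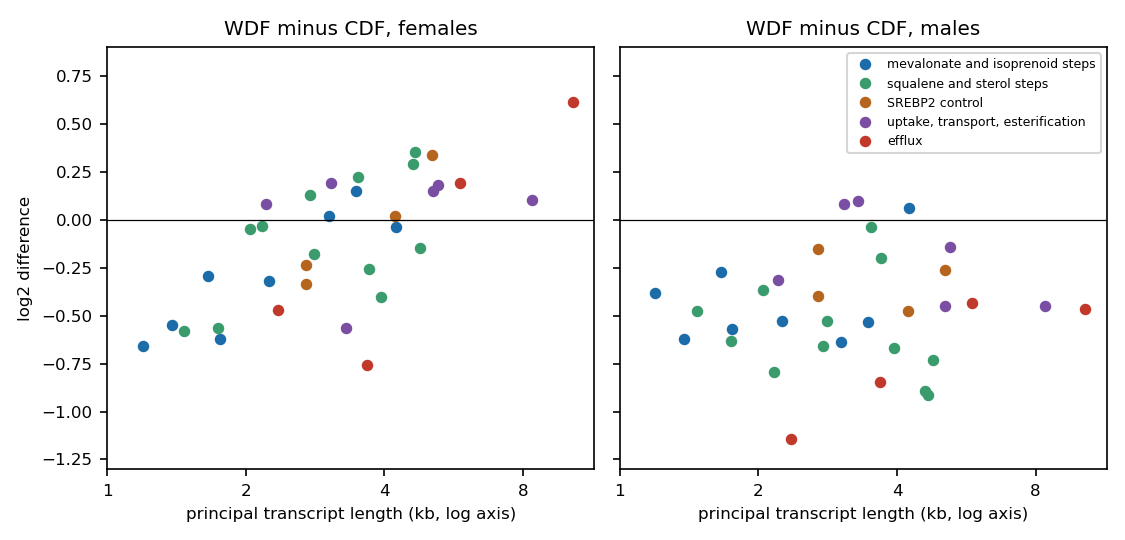
Log2 difference of each of the 34 genes against principal transcript length in kb (log axis), for WDF minus CDF females (left) and WDF minus CDF males (right), coloured by role. In these females the points climb with length (Spearman correlation 0.67), and in these males they do not (0.07). The correlation was -0.21 in WD minus CD females and 0.41 in WD minus CD males, which are not drawn.

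With the trend on length taken out of every library, 29 of 34 members were still below 0 for fat and the enzyme median was -0.29. Then 3 members passed, Abcg8, Tm7sf2 at -0.39 (limma adjusted p = 0.0410) and Sc5d at -0.48 (adjusted p = 0.0448), and 20 genes (0.13%) passed in all. In WDF against CDF females, where length and difference moved together, the same step left Pmvk at -0.39, Fdps at -0.32, Tm7sf2 at -0.37, Abca1 at 0.32 and Lss at 0.19, and 23 of 34 members below 0. This setting was added after the relation was seen.

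Other sterol genes had medians nearer to 0, a contrast between lists that was not tested. In the pooled fat comparison 0 genes passed among 9 of SREBP processing and sterol sensing, 11 of the isoprenoid branches, 14 of sterol transport and uptake and 9 of the oxysterol and bile acid side. Their medians were -0.03, 0.01, -0.04 and -0.08, with 6, 5, 8 and 6 members below 0. Srebf1, which drives fatty acid synthesis, had -0.10 (SE 0.10), the ubiquitin ligase gene Rnf145 0.10 (SE 0.09) and Erlin1 -0.05 (SE 0.07). The lipoprotein receptor gene Vldlr averaged 104 ± 55.4 in western-diet livers against 140 ± 73.8 in control-diet livers (SD, n = 20 and 18), a difference of -0.49 (SE 0.23, limma adjusted p = 0.627). Stard5, a sterol carrier, had -0.26 (SE 0.11) and Lcat, which esterifies cholesterol in plasma lipoproteins, 0.15 (SE 0.06). On the oxysterol side the hydroxylase genes Cyp39a1 and Cyp7b1 had -0.37 (SE 0.15) and -0.36 (SE 0.20), and the phospholipid gene Lpcat3 -0.19 (SE 0.10). Among the isoprenoid branches the quinone side-chain gene Pdss1 had 0.23 (SE 0.11), Rabggtb 0.11 (SE 0.07) and Fnta, a prenyltransferase subunit, -0.07 (SE 0.07).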

How the data were processed

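Per the labels' protocols, polyadenylated RNA was made into directional libraries and read as paired ends of 43 nt. The submitters' processing notes name Trimmomatic 0.39, STAR 2.7.3a, Salmon 1.3.0, DESeq2 1.24 and build mm10, without roles or order. The authors deposited read counts divided by size factors, a signal scale that is no longer whole counts (at a tolerance of 0.1, the share of whole values was 21.6 to 32.2%), so a count test was replaced by limma. Deposited too were 4 tables of comparisons by the authors, with the mean normalized count as a signal, a log2 fold change, its standard error as a score, and a p-value; the log2 values look shrunken and are not compared with the fit. The CDF column without a sex letter was assigned as the remaining female title.

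Values were taken as log2(value + 1), which understates the change of low genes such as Abcg5, and entered into limma 3.58.1 under R 4.3.3 (1 mean per group, mean-variance trend, robust), with Benjamini-Hochberg adjustment over 15377 genes and a threshold of 0.05. Precision rests on the spread between libraries. No counts were at hand, so no interval for counting error is given. In data simulated for the pooled fat comparison on 15377 genes, the fit found 44% of the 50 genes set to 1.25-fold, 80% of those at 1.5-fold and 100% of those at 2-fold, and 5 of its 167 calls were false. The genes set to change were drawn from genes of a higher mean level than Abcg5 and Abcg8, with noise drawn separately for each gene. These shares therefore do not cover that pair. The adjusted threshold is easier to pass where more genes are called, and the simulation made 167 calls against 7 in the data. The shares are thus likely higher than the fit would reach in these data. Principal transcript lengths come from GENCODE vM21 and promoter windows from RefSeq.

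The genes, lists and rules were chosen with earlier results of these data known. All 34 genes are accounted for. Values per library are given for genes past the threshold and for up to 3 with the smallest p in each comparison, and other genes are named from the lists by p or as the 10 most alike the enzyme mean. 1 gene that the rules name is not reported here. Alternatives tried were other sets of libraries, scaling, pseudocounts (0.5 and 5), filters, limma-voom, library weights, compared groups alone, a replicate block, an erythroid covariate and, added after seeing the data, removal of the length trend.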

Additional observations from a re-analysis of the deposited data

Results flagged for a closer look

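Single libraries lay far from the rest of their group in 8 of 96 groups of values (12 genes in 8 groups), and chance flags about 1 group in 20. Npc2 stood at 8538 normalized read counts in CDF female replicate 4, where the others of its group ran from 2763 to 3467, at 5298 in CD female replicate 5, against 2768 to 3053, and at 4217 in CDF male replicate 1, against 2364 to 2719. The first 2 of these libraries also held the most lung message of the 38, and the 2 libraries of low albumin read 11069 and 7918 for Npc2. Insig1 stood at 11324 in WD male replicate 4, against 5369 to 5923 in the others, the same library that was high for Abcg8 and Abcg5. Tm7sf2 stood at 1496 in WDF male replicate 2, against 1125 to 1206, and at 929 in WD male replicate 5, against 1422 to 1527. Cyp51 stood at 4876 in WDF male replicate 2, against 3302 to 3625, and Fdft1 at 5794 in CD male replicate 4, against 4399 to 4701. The part of these libraries in the results was not tested beyond leaving each out.

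In the 2 female libraries left out of the comparisons, the lung surfactant gene Sftpc read 101239 (CD replicate 4) and 67014 (CDF replicate 5), above the highest value of 30176 in the other 38. Soat2 read 3.68 and 2.17 in them, against 219 to 420 in the 38, and Ggps1 and Insig2 lay above the range of the 38 in both.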

How the results depend on the processing

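The count of members passing in the pooled fat comparison, 1, was 0 with all 40 libraries, with limma-voom, with the replicate block and with the erythroid covariate, 17 with library weights, 3 without the length trend, and 0 to 7 when each library was left out. Library weights also gave 2 in WD against CD males, 12 in WDF against CDF males and 4 in WDF against WD males, with 3.16% of all genes called in the pooled comparison. The enzyme median was -0.047 with all 40 libraries, where that of the 12 later enzymes was 0.031, and -0.32 to -0.24 with each library left out. Abcg8 ranged from -1.12 to -0.49 over the alternatives, and its adjusted p was 0.0658 with limma-voom, 0.0564 with the block and 0.287 with the covariate. Deviations of same-numbered libraries of 1 sex on other diets had a median correlation of -0.01 over 54 pairs, from -0.54 to 0.46. For the same number and diet but other sex the median was 0.03 over 18 pairs, from -0.43 to 0.37. Whether any pair is related cannot be told from these values, and the block pairs numbers only. Signs turned with all 40 libraries for Ggps1 (-0.085), Fdft1 (0.11), Lss (0.090), Tm7sf2 (0.067), Msmo1 (0.061), Ebp (0.0012), Dhcr7 (0.082), Mylip (-0.0030), Npc1 (-0.037) and Soat2 (0.60), without CD female 5 and CDF female 4 for Mylip (-0.0040), Npc1 (-0.10) and Abca1 (-0.11), with weights for Ggps1 (-0.023), Mylip (-0.070), Npc1 (-0.10) and Abca1 (-0.14), and with the covariate for Lbr (-0.0078), Insig2 (0.0063), Mylip (-0.026), Npc1 (-0.049), Soat1 (0.070) and Abca1 (-0.020). The cause was not tested. With a library left out, Ggps1 ran from -0.043 to 0.074, Mylip from -0.0044 to 0.047, Npc1 from -0.056 to 0.046 and Srebf2 from -0.091 to 0.037, and Abca1 was at -0.0052 without CD female 5 and -0.044 without CDF female 4.

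Small fold changes were recovered in part in simulated data, and the female control-diet groups hold 4 libraries each.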
